A study of Homo sapiens with 6 samples.

Results

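The nuclear genes of oxidative phosphorylation were taken as the protein-coding genes whose symbols follow the naming patterns of the subunits and assembly factors of complexes I to V (NDUF, SDH, UQCR, COX and ATP5 symbols). They numbered 110 of the 58735 genes in the count table. NDUFA4 and NDUFA4L2 were placed with complex IV, where the NDUFA4 protein is now known to sit. This gave 45 genes for complex I, 8 for complex II, 9 for complex III, 28 for complex IV and 20 for complex V, spread over 22 chromosomes. Another 158 genes have a symbol of the same pattern but are not annotated as protein-coding, and were not members.

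RNA was measured in SY5Y cells, a human neuroblastoma line grown in serum-containing medium, in 3 libraries labelled with a DLX5 overexpression genotype and 3 control libraries. DLX5 is a homeobox transcription factor. How DLX5 was introduced, what the controls received, and whether the replicates came from separate cultures are not stated in the labels. The p-values below therefore cover the spread from library to library only, and that spread could be technical. The study's title names an interaction of DLX5 with MYCN, and the libraries compare the transcriptome with and without raised DLX5.

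Oxidative phosphorylation couples the transfer of electrons from nutrients to oxygen with the making of ATP at the inner mitochondrial membrane. Complexes I and II feed electrons from NADH and succinate into ubiquinone, complex III passes them to cytochrome c, complex IV reduces oxygen, and complex V, the ATP synthase, uses the proton gradient that complexes I, III and IV build. Complex II is encoded by nuclear genes alone, whereas the other complexes also hold subunits made from mitochondrial DNA, so that both genomes must supply their parts. Factors of the MYC family, whose member MYCN drives a part of neuroblastomas, are known to act on many genes for mitochondrial proteins.

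Each library had 14644077 to 16886026 counts. DLX5 itself stood at 1582, 1569 and 1677 CPM in the DLX5 libraries and 12.4, 12.3 and 13.8 CPM in the controls, where CPM are counts per 1000000 of the scaled library total and libraries follow their replicate numbers here and below, so each library matched its label. All 8 markers of the labelled sympathetic neuroblast were detected, and their summed level was 1532 to 1663 CPM in the DLX5 libraries against 4402 to 4912 CPM in the controls. All 8 passed the test as lower. Over the fibroblast list, 8 of 9 genes passed as higher (sum 6747 to 7001 CPM against 1468 to 1513 CPM), and over the epithelial list 5 of 8 passed as higher and 1 as lower (sum 373 to 394 CPM against 29.1 to 34.2 CPM). No gene of these 3 lists was at 0 in all libraries. The glial list summed to 29.3 to 32.1 CPM against 42.3 to 47.7 CPM, and the endothelial and blood list to 2.13 to 2.89 CPM against 0.719 to 1.77 CPM. These levels moved together with the values below, and their part in them was not tested. In bulk RNA, fewer cells of a type and less RNA per cell cannot be told apart.

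Most nuclear oxidative phosphorylation genes stood slightly lower with DLX5. Of the 110 members, 105 had enough counts to be tested. Of these, 53 passed as lower and 2 as higher, SDHD and NDUFA13, while 50 did not pass (edgeR quasi-likelihood test, Benjamini-Hochberg adjusted p under 0.05 over all 17269 tested genes). Among all tested genes 58.6% passed, 28.8% as lower and 29.8% as higher. The members' share of 52.4% in either direction was thus below the background, whereas their share of lower calls, 50.5%, was above it and their share of higher calls, 1.9%, far below it. The median log2 fold change of the tested members was -0.19 (quartiles -0.35 and -0.07), against -0.00 for all tested genes (quartiles -0.33 and 0.41). Of the 105 tested members, 86 had a negative log2 fold change and 19 a positive one.

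The decreases were small. Only 7 of the 105 tested members passed and were at least 1.5-fold lower, which is 6.67% of them, against 11.5% of all tested genes. These were COX4I2, COX16, NDUFAF5, NDUFC2, ATP5MC1, NDUFAF4 and NDUFA4L2. NDUFA13 alone passed and was at least 1.5-fold higher (background 17.4%). When each gene was tested against a minimum change of 1.2-fold, 17 members passed as lower (16.2%) and 2 as higher, close to or below the shares of 16.8% lower and 21.0% higher over all genes. The members' share was thus above the background for passing as lower, and not for the larger decreases.

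**Figure D1:**
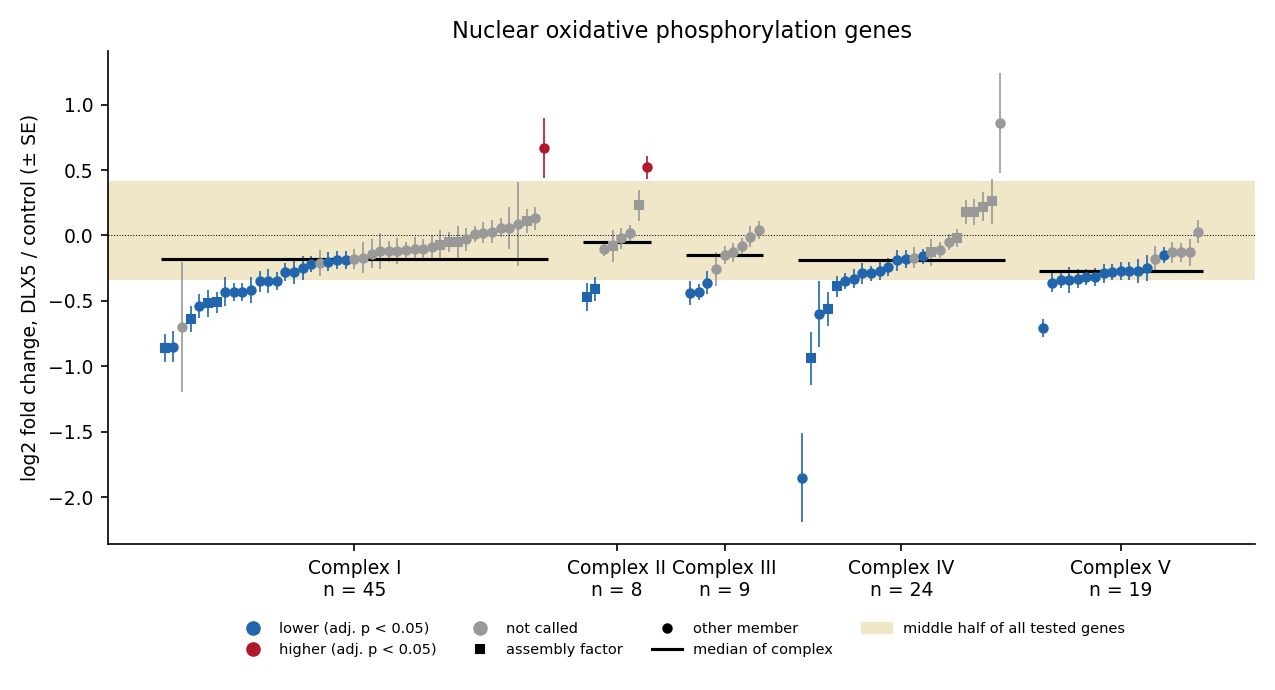
log2 fold change (DLX5 libraries over controls, ± standard error) of each of the 105 tested members, ordered by value within complexes I to V, with squares for assembly factors and circles for the other members. Blue points passed as lower, red points as higher and grey points did not pass. The black lines are the median of each complex, and the shaded band is the middle part (between the quartiles) of all tested genes. Most points lie between 0 and -0.5, and the complex V median, -0.27, is the lowest.

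Summed over all 110 members, the libraries held 5954, 6012 and 6266 CPM with DLX5 and 7192, 7241 and 6619.8 CPM in the controls. The sums did not overlap, and their means, 6077 ± 166 and 7018 ± 345 CPM (SD, n = 3), differed by 13.4%. The gap was uneven across libraries. Control replicate 3 was the lowest control for 74 of the 105 tested members, and DLX5 replicate 3 the highest DLX5 library for 63. Set against the mean of the controls on the log2 scale, the median member stood at 0.04, 0.04 and -0.08 in the controls and at -0.22, -0.21 and -0.17 in the DLX5 libraries. Without DLX5 replicate 1 the number of members that passed as lower was 43, and without control replicate 3 it was 58. The 3 DLX5 libraries were all below the 3 controls for 54 members and all above them for 4, against 30.8% and 31.7% of all tested genes.

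**Figure D2:**
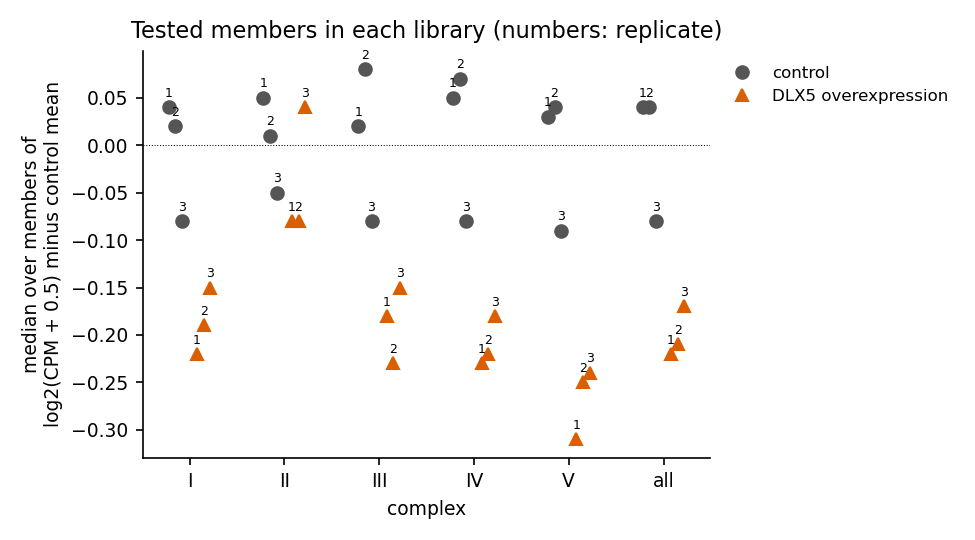
Median over the tested members of each complex, and of all complexes, of log2(CPM + 0.5) minus the mean of the controls, for each of the 6 libraries (grey circles, control; orange triangles, DLX5 overexpression; numbers, replicate). In complexes I, III, IV and V the DLX5 libraries lie below the controls, with control replicate 3 nearest to them, and in complex II the groups overlap.

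The members are well expressed genes, and both among the members and among all tested genes the share of lower calls was larger in the higher of the 2 level ranges. Of the 60 tested members with an average log2 CPM of at least 5, 38 passed as lower and 0 as higher in the edgeR test. That is 63.3% lower, against 39.5% lower and 30.8% higher of the 6816 genes of that level. Their median log2 fold change was -0.23, against -0.06 for all genes of that level. Of the 45 members below that level, 15 passed as lower and 2 as higher, with a median of -0.13. That is 33.3% lower and 4.44% higher, against 21.8% lower and 29.2% higher of the 10453 genes below that level, whose median was 0.05. Members are also short, with a median gene length of 2492 bases in the file against 4456 for all tested genes. The 53 members shorter than 2500 bases had a median log2 fold change of -0.25 and the 52 others -0.15, while all genes on either side of that length stood at -0.07 and 0.02.

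The promoters of these genes were searched for 3 short sequences known from genes for mitochondrial proteins. RefSeq windows of GRCh38.p14, from 250 bases before to 50 bases after the annotated start, matched 87 of the 110 members (109 windows). The palindromic site of the factor NRF1, whose 10 letters are the capitals in the NDUFB4 stretch below, was in 7.34% of the members' windows, against 1.24% of all 35116 windows and 1.5% of the windows of protein-coding genes. The ETS site CCGGAAGT, read by the GABP factors and searched on both strands, was in 13.8% of the members' windows, against 4.14% of all and 5.34% of protein-coding windows. The sequence of the YY1 site, also searched on both strands, was in 6.42%, against 0.849% of all and 1.18% of protein-coding windows. The median GC content of the windows was 61.3% for members, 58.7% for all and 62.3% for protein-coding genes.

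Matches to the NRF1 and ETS sequences were in the windows of members that passed as lower, passed as higher or did not pass. The counts cover the whole windows, which include the 50 bases after the start. The NRF1 palindrome was in the windows of 4 of the 42 matched members that passed as lower, 1 of the 2 that passed as higher and 2 of the 40 that did not pass. The ETS sequence was found for 9, 2 and 4 members of these sets, and the YY1 sequence for 2, 0 and 4. One stretch of 120 bases is shown for each complex, 5′ to 3′ on the strand of the gene, chosen because it holds such a match. Capitals mark the NRF1 palindrome and, in SDHD and UQCRH, ACTTCCGG, which is CCGGAAGT on the other strand. A match is a description of the letters, not a bound site.
NDUFB4, chr3:120596122-120596241, plus strand: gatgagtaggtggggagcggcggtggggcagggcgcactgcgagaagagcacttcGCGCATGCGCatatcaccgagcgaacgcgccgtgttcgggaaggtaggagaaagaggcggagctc
SDHD, chr11:112086723-112086842, plus strand: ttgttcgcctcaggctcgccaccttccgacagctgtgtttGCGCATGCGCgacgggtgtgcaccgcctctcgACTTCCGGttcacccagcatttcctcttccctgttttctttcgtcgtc
UQCRH, chr1:46303578-46303697, plus strand: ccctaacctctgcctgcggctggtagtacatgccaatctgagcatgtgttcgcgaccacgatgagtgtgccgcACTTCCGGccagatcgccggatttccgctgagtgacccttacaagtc
COX17, chr3:119677458-119677577, minus strand: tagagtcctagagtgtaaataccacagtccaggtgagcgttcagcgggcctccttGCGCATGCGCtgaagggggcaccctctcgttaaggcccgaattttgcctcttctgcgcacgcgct
ATP5F1C, chr10:7788057-7788176, plus strand: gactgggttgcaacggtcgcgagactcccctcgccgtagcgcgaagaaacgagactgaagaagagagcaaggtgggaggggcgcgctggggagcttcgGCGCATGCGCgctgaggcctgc

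Of these 5 genes, SDHD passed as higher and the other 4 as lower, so that the NRF1 palindrome stood before members that passed in opposite directions. The palindrome begins 159 bases before the annotated start in NDUFB4, an accessory subunit of complex I (log2 fold change -0.19 ± 0.07, adjusted p = 0.0209), and 22 bases before it in ATP5F1C, the gamma subunit that turns inside the ATP synthase head (log2 fold change -0.27 ± 0.07, adjusted p = 0.00108). In SDHD the palindrome begins 110 bases and the ETS sequence 78 bases before the start, and in UQCRH the ETS sequence begins 47 bases before it. COX17 has a pair of annotated starts, and the palindrome lies 116 bases before the outer one. NDUFB4 and ATP5F1C were chosen for these matches after their values were seen, and NDUFB4 did not pass without DLX5 replicate 1 (0.111) or control replicate 1 (0.0962).

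Complex I, the NADH dehydrogenase, had 20 of 45 members lower and 1 higher. That is 44.4% lower, against 28.8% of all tested genes. The median log2 fold change of complex I was -0.18. Its summed level was 1743, 1739 and 1833 CPM with DLX5 and 2113, 2083 and 1923 CPM in the controls, a mean 13.1% lower. The 3 largest decreases among members with an average log2 CPM of at least 2 were in NDUFAF5, NDUFC2 and NDUFAF4. NDUFAF5 (ENSG00000101247, chromosome 20, 13784950 to 13821582, plus strand, GRCh38) is an assembly factor that hydroxylates the core subunit NDUFS7. It stood at 9.51, 10.1 and 9.80 CPM in the DLX5 libraries and 17.0, 19.7 and 16.9 CPM in the controls. All DLX5 libraries lay far below all controls (log2 fold change -0.86 ± 0.11, adjusted p = 2.26e-07; here and below, ± after a log2 fold change is the standard error and p-values are from the edgeR quasi-likelihood test with Benjamini-Hochberg adjustment). NDUFC2 (ENSG00000151366, chromosome 11, 78068304 to 78080219, minus strand), an accessory subunit of the membrane arm, stood at 8.06, 8.59 and 10.8 CPM in the DLX5 libraries and 15.9, 17.3 and 16.4 CPM in the controls, again without overlap (log2 fold change -0.85 ± 0.12, adjusted p = 1.08e-06). NDUFAF4 (ENSG00000123545, chromosome 6, 96889313 to 96897881, minus strand), another assembly factor, stood at 14.5, 14.9 and 13.6 CPM in the DLX5 libraries and 20.2, 24.9 and 22.0 CPM in the controls and also separated the groups (log2 fold change -0.64 ± 0.10, adjusted p = 4.68e-06).

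Of the 8 assembly factors in the NDUFAF series, 4 passed as lower (50%, against 28.8% of all tested genes) and none as higher. The median of the 8 was -0.29. The other 2 of the 4 were NDUFAF6 (-0.52, adjusted p = 6.01e-05) and NDUFAF8 (-0.51, adjusted p = 8.01e-06), named after their values were seen. TP53INP1, which overlaps NDUFAF6 on the other strand, has 5854 counts against 1700 and passed as higher (0.54, adjusted p = 7.41e-07). The value of NDUFAF6 is therefore uncertain. NDUFAF1, NDUFAF2, NDUFAF3 and NDUFAF7, whose log2 fold changes were -0.07, -0.05, -0.05 and 0.11, did not pass. The assembly factors of complex I were thus split between 4 genes at 0.51 or more below the controls and 4 within 0.11 of them on the log2 scale.

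The 7 core subunits carry the flavin and the iron-sulphur clusters along which electrons pass. Of these, 3 passed as lower (42.9%, against 28.8% of all tested genes) and none as higher. NDUFS1, the largest core subunit, stood at 99.3, 97.3 and 93.7 CPM in the DLX5 libraries and 111, 121 and 107 CPM in the controls and fell by 0.22 ± 0.06 on the log2 scale (adjusted p = 0.00391). An overlapping gene on the other strand, EEF1B2, holds more counts than NDUFS1 (26284 against 10125) and also passed as lower (-0.43), and the deposited counts do not say whether strand was used. NDUFS3 stood at 33.4, 32.6 and 39.4 CPM in the DLX5 libraries and 48.2, 46.5 and 39.6 CPM in the controls and fell by 0.35 ± 0.09 on the log2 scale (adjusted p = 0.00135). Its control replicate 3 lay next to DLX5 replicate 3. CELF1, which overlaps it on the other strand, has 15625 counts against 3853 and also passed as lower (-0.29, adjusted p = 8.75e-05). NDUFV1, which binds the flavin that takes electrons from NADH, stood at 104, 99.4 and 116 CPM in the DLX5 libraries and 129, 122 and 116 CPM in the controls and fell by 0.20 ± 0.07 on the log2 scale (adjusted p = 0.0117). That call was lost without DLX5 replicate 1 (adjusted p = 0.0697) and without DLX5 replicate 2 (0.0777), and the groups overlapped. NDUFS7 (-0.14, adjusted p = 0.293), NDUFS8 (-0.18, adjusted p = 0.0679) and NDUFV2 (0.09, adjusted p = 0.834) did not pass, though NDUFS8 did with upper-quartile factors (0.0292), with the replicate number as a block (0.0392) and without control replicate 3 (0.0107). NDUFV2 had 78 and 73 counts over the 3 libraries of each group, fewer than the 174 counts of its pseudogene NDUFV2P1, so its value is uncertain.

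Among the 30 accessory subunits, 13 passed as lower (43.3%, against 28.8% of all tested genes) and NDUFA13 as higher. Per gene length, NDUFS5, an accessory subunit of the intermembrane face, had the highest level of complex I at 882 ± 15.8 TPM in the DLX5 libraries and 981 ± 51.9 TPM in the controls, and it did not pass (-0.11, adjusted p = 0.153). TPM are counts per base of the gene length in the file, scaled to 1000000 in each library. Ranks and shares between genes in TPM therefore depend on those lengths. NDUFB7, the next in level, had 323 ± 18.4 TPM in the DLX5 libraries and 427 ± 62.1 TPM in the controls and fell by 0.35 ± 0.08 on the log2 scale (adjusted p = 6.80e-04). NDUFB11 (-0.43), NDUFA5 (-0.54), NDUFA9 (-0.43) and NDUFB9 (-0.43) passed the test against a 1.2-fold change, and were named after their values were seen. RBM10, which overlaps NDUFB11 on the other strand, has 9574 counts against 7683 and also passed as lower (-0.34, adjusted p = 4.76e-05). NDUFA13, a subunit also known as a regulator of cell death, stood at 5.29, 3.81 and 4.87 CPM in the DLX5 libraries and 4.15, 1.92 and 2.80 CPM in the controls. Its groups overlapped, since control replicate 1 lay above DLX5 replicate 2 (log2 fold change 0.67 ± 0.23, adjusted p = 0.0138). The call was lost in DESeq2 (adjusted p = 0.0686), in limma on log2(FPKM + 0.1) (0.0525), without DLX5 replicate 1 (0.062) and without control replicate 2 (0.113, log2 fold change 0.43). NDUFA13 overlaps YJEFN3 on the same strand, which has 847 counts against 367 and also passed as higher (0.61), and reads of the pair may have been divided between them.

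Complex II, succinate dehydrogenase, had the median nearest to 0. Of 8 members 2 passed as lower and 1 as higher, or 25% and 12.5%, against 28.8% and 29.8% of all tested genes. The median was -0.05, and the summed level was 351, 341 and 364 CPM with DLX5 and 361, 364 and 349 CPM in the controls. SDHA, the flavoprotein that oxidises succinate, stood at 82.3, 84.9 and 85.6 CPM in the DLX5 libraries and 90.5, 93.3 and 86.9 CPM in the controls and did not pass (log2 fold change -0.10 ± 0.06, adjusted p = 0.181), although the groups did not overlap. SDHB, the iron-sulphur subunit, stood at 38.8, 37.9 and 41.2 CPM in the DLX5 libraries and 43.8, 38.8 and 37.2 CPM in the controls, with overlap (log2 fold change -0.02 ± 0.08, adjusted p = 0.836). SDHC, a membrane anchor, stood at 139, 132 and 142 CPM in the DLX5 libraries and 134, 139.6 and 133 CPM in the controls, also with overlap (log2 fold change 0.02 ± 0.06, adjusted p = 0.815). The reads of the SDHA pseudogenes SDHAP1 and SDHAP3, 1281 and 850 counts, come to more than 10% of those of SDHA, and the labels do not say how reads shared between copies were counted.

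SDHD, the other membrane anchor (ENSG00000204370, chromosome 11, 112086773 to 112120013, plus strand), rose. It stood at 34.7, 34.1 and 35.2 CPM in the DLX5 libraries and 20.2, 26.0 and 26.3 CPM in the controls, and the lowest DLX5 library lay above the highest control (log2 fold change 0.52 ± 0.09, adjusted p = 2.46e-05). Its log2 fold change was between 0.41 and 0.58 in all settings tried, and it passed in each. SDHD made up 25.5% ± 0.290 in the DLX5 libraries and 18.9% ± 2.77 in the controls of the summed TPM of SDHA, SDHB, SDHC and SDHD. The exact two-sided permutation p of this share was 0.1, the smallest that 3 against 3 libraries can give. The size of the share depends on the gene lengths in the file, which run from 2462 bases (SDHB) to 14160 bases (SDHC). SDHD and TIMM8B, an import factor of the intermembrane space, lie head to head on opposite strands and overlap. TIMM8B has 3304 counts against 2848 for SDHD and passed as lower (-0.83, adjusted p = 5.59e-09), so the neighbours at 1 promoter region passed in opposite directions. Reads of the overlap cannot be told apart where strand was not used.

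The assembly factors of complex II showed the 2 lower calls. SDHAF1, needed for the iron-sulphur clusters of SDHB, stood at 19.3, 14.2 and 21.0 CPM in the DLX5 libraries and 27.8, 23.7 and 24.1 CPM in the controls, with no overlap (log2 fold change -0.47 ± 0.11, adjusted p = 8.28e-04). SDHAF3, which acts with SDHAF1, stood at 16.1, 17.2 and 17.3 CPM in the DLX5 libraries and 23.5, 23.3 and 20.4 CPM in the controls, again with no overlap (log2 fold change -0.41 ± 0.09, adjusted p = 5.73e-04). SDHAF3 lies on chromosome 7, 91640 bases from DLX5. SDHAF2, which attaches the flavin to SDHA, did not pass (-0.08, adjusted p = 0.588), nor did SDHAF4 (0.23, adjusted p = 0.0925), whose DLX5 libraries all lay above the controls and which passed as higher in limma on the deposited FPKM.

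Complex III, the cytochrome bc1 complex, had 3 of 9 members lower and 0 higher. That is 33.3% lower, near the 28.8% of all tested genes. CYC1, the cytochrome c1 gene, does not follow the naming patterns and was not a member. The median of complex III was -0.15. Its sum was 692, 717 and 745 CPM with DLX5 and 839.5, 854 and 772 CPM in the controls, a mean 12.6% lower. UQCRH, the hinge protein that helps cytochrome c dock (ENSG00000173660, chromosome 1, 46303631 to 46316776, plus strand), stood at 177, 188 and 189 CPM in the DLX5 libraries and 256, 265 and 227 CPM in the controls, without overlap (log2 fold change -0.43 ± 0.06, adjusted p = 1.51e-06). Per length it was the most abundant member of the complex, at 433 ± 11.3 TPM in the DLX5 libraries and 604 ± 36.7 TPM in the controls. UQCR11 stood at 17.7, 17.3 and 17.4 CPM in the DLX5 libraries and 23.5, 24.0 and 23.8 CPM in the controls, with the libraries of each group close together (log2 fold change -0.44 ± 0.09, adjusted p = 1.20e-04). UQCR10 stood at 32.5, 31.0 and 39.6 CPM in the DLX5 libraries and 47.2, 44.4 and 40.7 CPM in the controls, where DLX5 replicate 3 came close to control replicate 3 (log2 fold change -0.36 ± 0.09, adjusted p = 0.00109).

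The other 6 members of complex III did not pass. UQCRC1, a core protein, stood at 138, 145 and 146 CPM in the DLX5 libraries and 161, 149.8 and 143 CPM in the controls (log2 fold change -0.08 ± 0.06, adjusted p = 0.272). UQCRC2, the other core protein, had a log2 fold change of 0.04, adjusted p = 0.653, and UQCRB -0.01, adjusted p = 0.901. UQCRFS1, the Rieske iron-sulphur protein, had -0.15, adjusted p = 0.0651, with the DLX5 libraries all below the controls, and passed without control replicate 3 (0.0474). UQCRQ, next in level per length at 227 ± 21.0 TPM in the DLX5 libraries and 257 ± 9.80 TPM in the controls, had -0.13, adjusted p = 0.0904, and passed without DLX5 replicate 3 (0.0405). UQCRHL, a near-identical copy of UQCRH, had -0.26, adjusted p = 0.0926 and made up 2.78% ± 0.289 in the DLX5 libraries and 2.48% ± 0.165 in the controls of the summed TPM of the pair. With upper-quartile factors 5 of the 9 members passed as lower and with no scaling factors 7 did, so the count for complex III depends on the scaling.

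Complex IV, cytochrome c oxidase, had 14 of 24 tested members lower and 0 higher. That is 58.3% lower, against 28.8% of all tested genes. The median of complex IV was -0.18. Its sum was 1249, 1243 and 1328 CPM with DLX5 and 1482, 1501 and 1343 CPM in the controls, a mean 11.7% lower, and control replicate 3 lay close to DLX5 replicate 3. Without control replicate 3 the median was -0.27. Of the 14 tested subunits 10 passed as lower (71.4%), against 3 of the 9 assembly factors (33.3%), whose median was -0.02. The share of the assembly factors was near the 28.8% of all tested genes. Against a 1.2-fold minimum change the order was reversed. There 1 subunit, COX4I2, passed as lower (7.14%), and 3 assembly factors did (33.3%), against 16.8% of all tested genes. The difference between these sets was not tested.

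Among the assembly factors, COX17, the copper chaperone of the complex (ENSG00000138495, chromosome 3, 119654513 to 119677454, minus strand), stood at 9.45, 9.94 and 11.7 CPM in the DLX5 libraries and 17.2, 16.2 and 12.7 CPM in the controls, without overlap (log2 fold change -0.56 ± 0.13, adjusted p = 4.37e-04). It overlaps POPDC2 on the same strand, which has 2055 counts against 1239 and also passed as lower (-0.69, adjusted p = 2.41e-07). COX15, which makes the haem a of the oxidase, stood at 36.0, 35.6 and 36.5 CPM in the DLX5 libraries and 42.7, 51.7 and 46.9 CPM in the controls, also without overlap (log2 fold change -0.39 ± 0.08, adjusted p = 1.34e-04). COX16, needed for the copper site of the complex, had fewer counts, 128 against 244 over the 3 libraries of each group, and passed as lower (log2 fold change -0.94 ± 0.20, adjusted p = 1.71e-04). It was named after its value was seen. The 6 assembly factors that did not pass had log2 fold changes from -0.13 (COX10, which farnesylates haem) to 0.26 (COX20).

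The broadly expressed subunits of complex IV moved in small steps. Per length the most abundant was COX8A, at 428 ± 31.2 TPM in the DLX5 libraries and 564 ± 2.07 TPM in the controls. It stood at 68.3, 62.6 and 65.7 CPM in the DLX5 libraries and 84.1, 85.5 and 81.8 CPM in the controls, without overlap (log2 fold change -0.35 ± 0.06, adjusted p = 3.73e-05). COX6B1, the next in level at 292 ± 18.1 TPM in the DLX5 libraries and 341 ± 19.4 TPM in the controls, passed (log2 fold change -0.18 ± 0.07, adjusted p = 0.0286), but its groups overlapped. It did not pass in DESeq2 (adjusted p = 0.0522), in limma on the FPKM or without any one of DLX5 replicate 1, DLX5 replicate 2, control replicate 1 and control replicate 2 (adjusted p from 0.0772 to 0.153). COX6A1 (-0.29, adjusted p = 0.00324), COX7A2 (-0.27, adjusted p = 0.00161) and COX7B (-0.33, adjusted p = 3.95e-04) passed as lower. COX4I1, which is needed for an early step of assembly, stood at 200.0, 195 and 209 CPM in the DLX5 libraries and 225, 219 and 208 CPM in the controls and did not pass (log2 fold change -0.11 ± 0.06, adjusted p = 0.108), with control replicate 3 below DLX5 replicate 3. It passed as lower with upper-quartile factors (0.0353). COX7A2L, a factor that joins complexes into supercomplexes, passed as lower (log2 fold change -0.16 ± 0.06, adjusted p = 0.0318), but not in DESeq2 (0.0521), with no filter (0.0575) or without DLX5 replicate 1 (0.1), DLX5 replicate 3 (0.101) or control replicate 2 (0.126). NDUFA4 did not pass (-0.05, adjusted p = 0.552).

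Several complex IV subunits have another isoform for special tissues, and these were low in all libraries. COX4I2, the lung isoform known to respond to low oxygen (ENSG00000131055, chromosome 20, 31637888 to 31645006, plus strand), stood at 0.902, 0.452 and 0.609 CPM in the DLX5 libraries and 3.08, 1.92 and 2.19 CPM in the controls. The groups were far apart on few counts, 32 with DLX5 and 114 in the controls, and this was the largest decrease of all tested members (log2 fold change -1.85 ± 0.34, adjusted p = 3.54e-05). On the log2(FPKM + 1) scale, which shrinks low values, it was -1.19. COX4I2 made up 2.19% ± 0.746 in the DLX5 libraries and 7.06% ± 1.49 in the controls of the summed TPM of COX4I1 and COX4I2 (exact permutation p = 0.1, the smallest possible). The size of this share depends on the gene lengths in the file, 693 bases for COX4I2 and 4792 for COX4I1. In CPM the means of COX4I2 were 0.654 with DLX5 and 2.40 in the controls, against 201 and 217 for COX4I1. NDUFA4L2, a paralogue of NDUFA4 induced by low oxygen, stood at 1.80, 2.07 and 1.83 CPM in the DLX5 libraries and 3.89, 2.70 and 2.13 CPM in the controls. It passed (log2 fold change -0.60 ± 0.25, adjusted p = 0.0442), yet not in DESeq2 (0.167), limma-voom (0.0711), limma on FPKM (0.0648 and 0.0622) or without any one of DLX5 replicates 1, 2 and 3 and control replicates 1 and 2. Without control replicate 1 its log2 fold change was -0.35 (adjusted p = 0.305). SHMT2, which overlaps it, has 10936 counts against 230, so this value is uncertain. COX6B2, the testis isoform, stood at 1.56, 0.839 and 1.77 CPM in the DLX5 libraries and 0.402, 1.02 and 0.853 CPM in the controls, with overlap, and did not pass (log2 fold change 0.86 ± 0.38, adjusted p = 0.054). It passed as higher at a filter of 1 CPM (0.0472), with protein-coding genes only (0.0474), without DLX5 replicate 2 (0.0174) and without control replicate 2 (0.0429).

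The remaining 5 members had too few counts to be tested. COX7A1, the heart and muscle isoform, had 29 counts with DLX5 and 14 in the controls, and COX8C, a testis isoform, had 10 and 6. ATP5MGL had 0 and 1. COX6A2, a muscle isoform, and COX7B2 had 0 counts in all 6 libraries, which allows a level of up to 0.031 CPM over the libraries (3 counts, counting error only). In each of the complex IV isoform pairs the broadly expressed isoform held at least 91.3% of the summed TPM in every library. That minimum was in the pair of COX4I1 and COX4I2, whose gene lengths in the file differ as given above.

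Complex V, the ATP synthase, had 14 of 19 tested members lower and 0 higher. That is 73.7% lower, against 28.8% of all tested genes. Against a 1.2-fold minimum change only 1 of the 19 passed as lower, or 5.26%, against 16.8% of all tested genes. Likewise 1 passed and was at least 1.5-fold lower (5.26%, against 11.5%). The share of complex V was thus above the background for passing as lower, and below it for larger decreases. The median of complex V was -0.27. Its sum was 1918, 1973 and 1997 CPM with DLX5 and 2397, 2439 and 2233 CPM in the controls, a mean 16.7% lower, and the sums did not overlap. The largest decrease among members of average log2 CPM of at least 2 was in ATP5MC1, 1 of 3 genes that encode the same mature c subunit of the proton-driven ring (ENSG00000159199, chromosome 17, 48892765 to 48895871, plus strand). ATP5MC1 stood at 47.2, 42.4 and 48.5 CPM in the DLX5 libraries and 76.8, 79.9 and 69.9 CPM in the controls, without overlap (log2 fold change -0.71 ± 0.07, adjusted p = 4.22e-09), and had the smallest adjusted p of all members. ATP5MC2 (log2 fold change -0.32 ± 0.06, adjusted p = 3.81e-05) and ATP5MC3 (log2 fold change -0.28 ± 0.06, adjusted p = 3.30e-04) also fell. In summed TPM of the 3 genes, ATP5MC1 made up 28.1% ± 1.14 in the DLX5 libraries and 34.1% ± 1.12 in the controls, ATP5MC2 52.8% ± 0.471 in the DLX5 libraries and 48.7% ± 0.958 in the controls, and ATP5MC3 19.1% ± 0.962 in the DLX5 libraries and 17.2% ± 0.559 in the controls. The groups did not overlap for any of the 3 shares (exact two-sided permutation p = 0.1 each, the smallest possible).

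In the catalytic head 4 of 5 genes passed as lower. ATP5F1B, the catalytic beta subunit (ENSG00000110955, chromosome 12, 56638175 to 56646068, minus strand), stood at 513, 537 and 526 CPM in the DLX5 libraries and 659, 686 and 643 CPM in the controls, without overlap (log2 fold change -0.34 ± 0.06, adjusted p = 1.44e-05). Per length it was the most abundant member of complex V, at 747 ± 6.98 TPM in the DLX5 libraries and 974 ± 15.2 TPM in the controls. ATP5F1A, the alpha subunit that alternates with it, stood at 402, 414 and 402 CPM in the DLX5 libraries and 449, 472 and 434 CPM in the controls. It passed (log2 fold change -0.15 ± 0.06, adjusted p = 0.0249), and did not pass without DLX5 replicate 1 (0.106), DLX5 replicate 3 (0.097) or control replicate 2 (0.0651). ATP5F1E, the epsilon subunit, was the head gene that did not pass (-0.13, adjusted p = 0.162). Of the 4 stalk genes 2 passed as lower, ATP5PB (-0.32, adjusted p = 3.83e-04) and ATP5PF (-0.27, adjusted p = 0.00125), while ATP5PD (0.03, adjusted p = 0.763) and ATP5PO (-0.18, adjusted p = 0.14) did not.

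Of the 5 membrane genes outside the c ring, ATP5MD, ATP5ME and ATP5MPL passed as lower, while ATP5MF (-0.13, adjusted p = 0.11) and ATP5MG (-0.13, adjusted p = 0.26) did not. ATP5MPL, a small proteolipid, fell by 0.36 ± 0.07 on the log2 scale (adjusted p = 1.86e-04). ATP5MD, known as DAPIT and next in level per length at 242 ± 10.5 TPM in the DLX5 libraries and 314 ± 21.0 TPM in the controls, fell by 0.33 ± 0.07 on the log2 scale (adjusted p = 2.08e-04). It overlaps TAF5, which has 1391 counts against 7359 and also passed as lower. ATP5S, the coupling factor B gene, fell by 0.34 ± 0.10 on the log2 scale (adjusted p = 0.00466). ATP5IF1, the inhibitor that stops the enzyme from consuming ATP, stood at 45.7, 40.9 and 50.8 CPM in the DLX5 libraries and 63.6, 52.8 and 50.1 CPM in the controls and passed (log2 fold change -0.27 ± 0.09, adjusted p = 0.00897), although the groups overlapped. That call was lost without DLX5 replicate 2 (0.0657) and without control replicate 1 (0.0873).

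**Figure D3:**
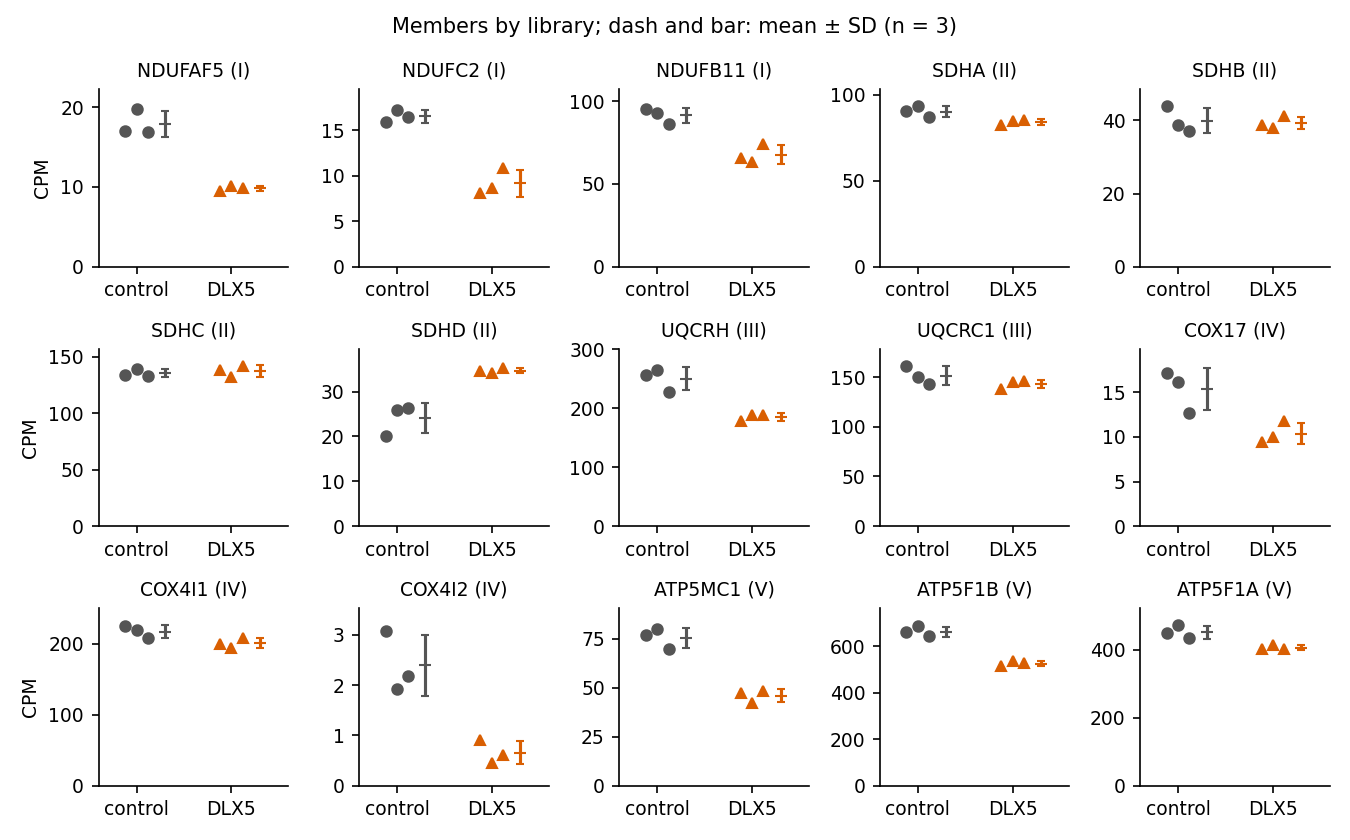
CPM of 15 members by library (circles, control; triangles, DLX5 overexpression), with the mean ± SD of each group (n = 3) beside the points and the complex in brackets. Each axis starts at 0. SDHD is the panel in which all DLX5 libraries lie above all controls, and COX4I2 holds the fewest CPM.

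Many members share their genomic place with other genes. Of the 110, 71 overlap another annotated gene, and for 36 the overlapping gene holds more than 10% as many counts. For 19 it holds at least as many. Of those 19, ATP5MGL and COX8C were not tested. Among the others 10 passed in either direction, where 58.6% of all tested genes did. Among the 71 tested members with no such overlap over 10%, 38 passed as lower and 0 as higher in the edgeR test, against 28.8% lower and 29.8% higher of all tested genes. Pseudogenes named after members, 168 in number, held 3666 counts in all, or 0.58% as many as the members. For 4 members, SDHA, COX6A1, COX20 and NDUFV2, the share was over 10%.

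Other genes of the pathway are given by lists of textbook members, which are not complete and leave out CYC1. Their counts stand beside 28.8% of all tested genes called lower and 29.8% called higher. Of 32 further assembly factors that the naming patterns do not cover, 17 passed as lower and 1 as higher, with a median of -0.21. UQCC2, an assembly factor of complex III, stood at 27.8, 29.7 and 30.3 CPM in the DLX5 libraries and 45.0, 48.8 and 49.2 CPM in the controls, without overlap (log2 fold change -0.71 ± 0.08, adjusted p = 1.19e-08). COA7 (-0.64, adjusted p = 5.76e-08) and COA4 (-0.52, adjusted p = 1.43e-06), which act on complex IV, and ATPAF1 (-0.55, adjusted p = 1.43e-06), a chaperone of the ATP synthase head, also passed as lower. OXA1L, the insertase that places subunits into the inner membrane, was the 1 that passed as higher (0.37, adjusted p = 2.73e-05), and without DLX5 replicate 1 there were 2.

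Of the 13 subunits encoded by mitochondrial DNA, 8 passed as higher and 2 as lower in the edgeR test, with a median log2 fold change of 0.36. DESeq2 called 6 of them higher, and 6 passed as higher against a 1.2-fold change. Their summed level was 64807 to 77736 CPM in the DLX5 libraries and 57747 to 63925 CPM in the controls. Without TMM scaling the groups overlapped, at 63795, 74898 and 64171 counts per 1000000 in the DLX5 libraries and 58850, 65158 and 61832 in the controls. MT-CYB, the cytochrome b of complex III, stood at 4611, 5358 and 4637 CPM in the DLX5 libraries and 3366, 3594 and 3428 CPM in the controls (log2 fold change 0.49 ± 0.07, adjusted p = 4.14e-07), in the opposite direction to UQCRH. MT-CO2, which takes electrons from cytochrome c in complex IV, stood at 7492, 8778 and 7746 CPM in the DLX5 libraries and 5765, 6008 and 5522 CPM in the controls (log2 fold change 0.47 ± 0.07, adjusted p = 9.84e-07). In complex I, MT-ND6 (0.52, adjusted p = 1.16e-06) and MT-ND5 (0.43, adjusted p = 9.50e-06) passed as higher, whereas MT-ND1 (-0.20, adjusted p = 0.0126) and MT-ND2 (-0.19, adjusted p = 0.0229) passed as lower, with overlapping groups. The 2 lower calls were lost without DLX5 replicate 1, DLX5 replicate 3 or control replicate 2, and limma on the deposited FPKM called 4 higher and 0 lower. DLX5 replicate 2 had the highest share of mitochondrial reads, 9.13%, against 7.72% to 7.79% in the other DLX5 libraries and 7.1% to 7.91% in the controls. Without it 8 of the 13 still passed as higher.

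Of 21 tested genes that control mitochondrial biogenesis and the expression of mitochondrial DNA, 10 passed as lower and 2 as higher (POLG2, 0.27, and TOP1MT, 0.21), with a median of -0.21. The number higher was 1 in DESeq2, with upper-quartile or no scaling factors, and without DLX5 replicate 2, DLX5 replicate 3 or control replicate 3. ESRRG, an orphan nuclear receptor that drives oxidative genes in heart and muscle, stood at 12.9, 14.7 and 10.9 CPM in the DLX5 libraries and 36.0, 37.9 and 40.4 CPM in the controls (log2 fold change -1.57 ± 0.10, adjusted p = 2.56e-13), far below the controls in each DLX5 library. GABPB1, a partner of the ETS factor GABPA, had -0.73, adjusted p = 2.16e-07. TFAM, which packages mitochondrial DNA and starts its transcription, had -0.52, adjusted p = 6.93e-07, and PPRC1, a coactivator, had -0.40, adjusted p = 4.29e-06. NRF1, whose site was searched in the promoters, stood at 24.7, 22.1 and 23.6 CPM in the DLX5 libraries and 33.4, 27.8 and 31.8 CPM in the controls (log2 fold change -0.40 ± 0.09, adjusted p = 3.86e-04), and was named after its value was seen. PPARGC1A, the best known coactivator of mitochondrial biogenesis, had 1 count in all 6 libraries and was not tested.

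All 13 genes of mitochondrial protein import and folding passed as lower, with a median of -0.46. TOMM40, the channel of the outer membrane, stood at 85.1, 88.1 and 92.8 CPM in the DLX5 libraries and 145, 141 and 136 CPM in the controls (log2 fold change -0.67 ± 0.06, adjusted p = 4.97e-10). HSPD1, the matrix chaperonin, stood at 372, 419 and 374 CPM in the DLX5 libraries and 599, 659 and 592 CPM in the controls (log2 fold change -0.67 ± 0.06, adjusted p = 9.32e-10), and its partner HSPE1 had -0.72, adjusted p = 3.03e-08. HSPA9, the matrix HSP70, had -0.64, adjusted p = 2.33e-09. The groups did not overlap for any of the 13, and all 13 passed in each setting except the test against a 1.2-fold change, where 9 did.

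Cytochrome c, the carrier between complexes III and IV, fell. CYCS stood at 117, 124 and 121 CPM in the DLX5 libraries and 178, 204 and 183 CPM in the controls, without overlap (log2 fold change -0.64 ± 0.06, adjusted p = 1.61e-09). Of the 8 genes of electron, ADP/ATP and phosphate carriers and outer membrane channels, 4 passed as lower, among them SLC25A5 (-0.23, adjusted p = 0.00249) and VDAC2 (-0.20, adjusted p = 0.00938), and SLC25A3, the phosphate carrier, passed as higher (0.17, adjusted p = 0.0128). The higher call was lost without DLX5 replicate 3 or control replicate 3, and 2 passed as lower without control replicate 2. With no scaling factors 7 passed as lower and 0 as higher. In the tricarboxylic acid cycle, which supplies the electrons, 5 of 14 genes passed as lower and 2 as higher, with a median of -0.11, and 3 passed as lower without DLX5 replicate 1. IDH2 stood at 152, 160.1 and 160.4 CPM in the DLX5 libraries and 224, 206 and 203 CPM in the controls (log2 fold change -0.42 ± 0.06, adjusted p = 1.01e-06), and FH had -0.29, adjusted p = 2.77e-04. SUCLG2, the GTP-forming subunit of succinyl-CoA ligase, stood at 46.0, 49.9 and 45.0 CPM in the DLX5 libraries and 23.5, 22.5 and 21.5 CPM in the controls (log2 fold change 1.06 ± 0.08, adjusted p = 9.89e-12), and OGDH had 0.25, adjusted p = 6.04e-04, both higher.

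**Figure D4:**
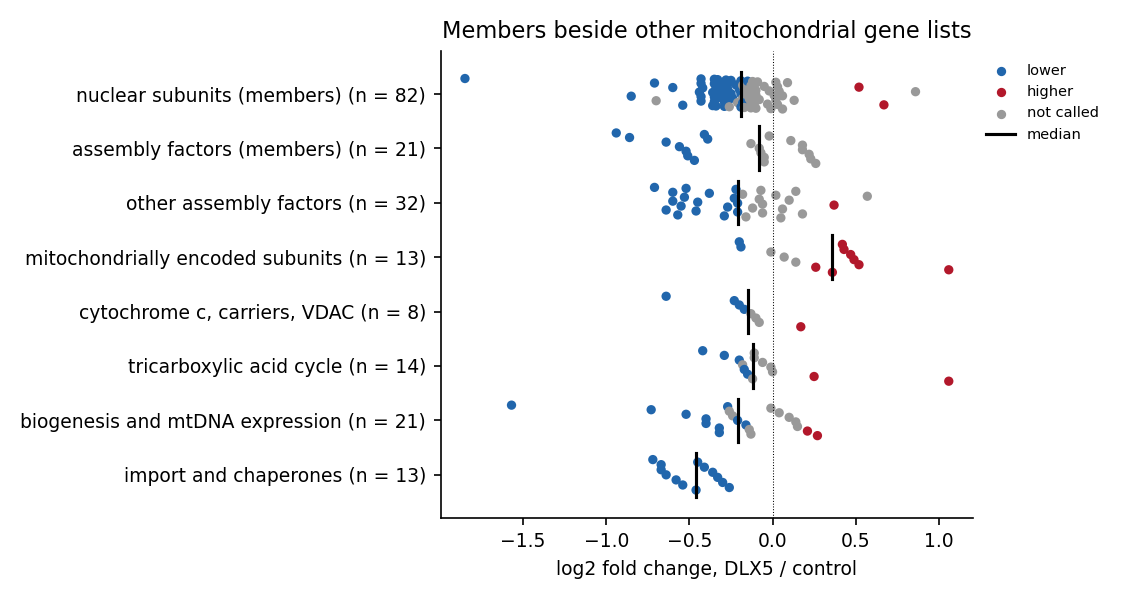
log2 fold change (DLX5 libraries over controls) of each tested gene, in rows for the members (subunits and assembly factors) and for the 6 other mitochondrial lists, with a black line at each median. Blue points passed as lower, red as higher and grey did not pass. The row of mitochondrially encoded subunits has its median at 0.36, to the right of 0, and the medians of the other rows lie to the left.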

How the data were processed

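RNA of 3 libraries with DLX5 overexpression and 3 controls was analysed from the deposited gene counts, which are whole numbers per gene and library made by the authors. The submitters' processing notes name HISAT2 2.0.5, featureCounts 1.5.0-p3 and hg19, and strand settings are not given in the sources used here. All 58735 genes of the count table have the coordinates of GENCODE release 29 on GRCh38, so coordinates are given on GRCh38. The deposited FPKM, made by the authors from the same reads, served only in an alternative.

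Counts were tested with edgeR 4.0.16 in R 4.3.3: filterByExpr by group left 17269 genes, libraries were scaled by TMM, and the two-sided quasi-likelihood test was adjusted by Benjamini-Hochberg over all of them. The threshold was an adjusted p of 0.05. The variation between replicate libraries beyond counting error, as edgeR estimates it, came to 6.17% (coefficient of variation) and could be technical. All 6 libraries entered the fit, and none was taken for a copy, since chi-square per degree of freedom was 2.23 to 5.07 between libraries of a group. The labels do not say that replicate numbers mark a shared source, and deviations of same-numbered libraries correlated by -0.04 to 0.09. The fit was also checked on simulated counts. Exact permutation tests of 3 against 3 libraries cannot go below 0.1. Intervals for 0 counts cover counting error only.

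The members and lists were chosen with earlier results of these data known. Members named are, per complex, the 3 largest rises and falls that passed with an average log2 CPM of at least 2, the 2 highest in TPM, the catalytic core, the isoform sets and ATP5IF1, and from each list up to 4 genes with the smallest adjusted p. Others are said to be named after their values were seen, and a few values are not reported here. Alternatives were RLE and upper-quartile factors, no scaling factors, DESeq2 1.42.0, limma-voom (limma 3.58.1), no filter, 1 CPM in 3 libraries, protein-coding genes only, limma on log2(FPKM + 0.1) and on log2(FPKM + 1), the replicate number as block, a threshold of 0.01, a 1.2-fold minimum change and each library left out. Removal of the trend with gene length (loess, span 0.3) and leaving out the mitochondrial chromosome were added after the data were seen. Figures were drawn with matplotlib 3.10.9.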

Additional observations from a re-analysis of the deposited data

How the results depend on the processing

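With 3 libraries a group, depth of 14644077 to 16886026 counts limits the low members most, so the isoforms under about 1 CPM rest on few counts. Of the 105 tested members, 55 passed, and 19 passed against a 1.2-fold minimum change. Lower calls were 53, and 17 against that minimum. Higher calls were 2, and 1 in DESeq2, 1 at an adjusted p under 0.01 and 4 in limma on log2(FPKM + 1), which added COX14 and SDHAF4. Lower calls numbered 60 with upper-quartile factors, 68 with no scaling factors and 47 in DESeq2, and 53, 53 and 47 of these were among the 53. Leaving out 1 library gave 43 to 58 lower calls, and the complex IV median, -0.18, lay between -0.27 and -0.15. The replicate numbers gave no sign of pairing the samples, since not every library correlated best with its own number, and with the replicate block 53 members passed as lower, 52 of them shared, with NDUFA4L2 lost (adjusted p = 0.053) and NDUFS8 gained (0.0392). Medians of all members and of each complex kept their sign when the length trend was removed and when the mitochondrial chromosome was left out. No named member that passed changed direction in these settings, whereas some that did not pass, among them NDUFS7, NDUFV2, SDHB, SDHC and UQCRC2, took either sign.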
